A study of Homo sapiens with 15 samples.

Results

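The genes described here are 9 receptors, or subunits of receptors, with which myeloid cells recognize antibody-coated or complement-coated particles and follow chemoattractants: FCGR1A, FCGR1B, FCGR2A, FCER1G, FPR1, FPR2, C5AR1, C3AR1 and CR1. They were chosen by symbol and are 9 of the 57820 gene identifiers in the deposited tables. RNA-seq libraries came from 3 human lines of acute myeloid leukemia (AML), namely HL-60, U937 and MOLM-13, transduced with the empty lentiviral vector pLKO or with shRNF5, a short hairpin RNA against RNF5. RNF5 is a ubiquitin ligase anchored in the endoplasmic reticulum membrane. The 15 libraries were split as 3 with pLKO and 2 with shRNF5 for MOLM-13, 3 per construct for HL-60 and 2 per construct for U937. The hairpin behind the libraries is not named in the sources used here, and nothing states that libraries of a group came from separate cultures, so p-values measure the spread between these libraries only. Harvest was at day 7 by the sample labels and at day 5 by the series design, and a 3′-end library kit is named in the labels and a directional poly(A) kit in the methods. Values are normalized read counts, scaled by the authors within each line and rounded to whole numbers, and a gene that failed their filter on low counts is listed at 0.

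Fcγ receptors bind the constant part of IgG. The high-affinity receptor encoded by FCGR1A has no signaling tail of its own and depends on the γ chain encoded by FCER1G, which carries an immunoreceptor tyrosine-based activation motif (ITAM), whereas the low-affinity receptor encoded by FCGR2A carries such a motif in its own tail. FPR1 and FPR2 encode G protein-coupled receptors for formylated peptides from bacteria and mitochondria, and C5AR1 and C3AR1 encode the receptors of the anaphylatoxins C5a and C3a. CR1 encodes complement receptor 1, which binds C3b and C4b. All of these receptors are known from mature monocytes, macrophages and neutrophils, and several are used as markers when AML cells are driven to differentiate.

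Promoter windows are shown first because FCGR2A and FCGR1A, whose read counts moved in opposite directions in HL-60, share a stretch of promoter sequence. RefSeq promoter windows on GRCh38.p14 were found for 8 of the 9 genes, all but FCGR1B, and the 250 bases before the start site are given 5′ to 3′. Capitals mark TTCCTC, the reverse-strand form of GAGGAA, a core of sites bound by the myeloid factor PU.1, and, in FCGR1A only, TTCCCAGAA, a match to TTCNNNGAA, the type of palindrome bound by STAT dimers. The FCGR1A window is chr1:149782444-149782693 and the FCGR2A window is chr1:161505207-161505456, both on the forward strand.
FCGR1A: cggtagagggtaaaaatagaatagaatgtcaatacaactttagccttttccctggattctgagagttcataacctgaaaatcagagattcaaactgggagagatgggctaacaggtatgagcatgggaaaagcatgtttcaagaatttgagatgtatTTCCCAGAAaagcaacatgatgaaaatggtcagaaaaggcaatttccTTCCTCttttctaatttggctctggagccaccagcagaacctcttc
FCGR2A: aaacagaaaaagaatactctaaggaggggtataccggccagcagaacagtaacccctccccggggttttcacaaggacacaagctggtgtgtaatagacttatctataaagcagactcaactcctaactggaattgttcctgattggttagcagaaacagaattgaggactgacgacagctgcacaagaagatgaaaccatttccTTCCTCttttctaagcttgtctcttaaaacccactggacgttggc
The longest run that any pair of the 8 genes shared was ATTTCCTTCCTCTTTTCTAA, 20 bases that begin at position -52 in FCGR1A and at position -51 in FCGR2A, counted from the start site. It occurred in 2 of 34788 RefSeq promoter windows, those of these 2 genes, and was picked out after the sequences had been seen. Searched on both strands, GAGGAA was present in 3 of the 8 genes, against 23.6% of all windows. It lay at position -46 in FCGR1A, at -45 in FCGR2A and at -201 and -56 in C5AR1. TTCNNNGAA was present in 2 of the 8, FCGR1A at position -93 and FPR2 at -144, against 6.57% of all windows. These are matches of letters, and no binding was measured.

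The steps between low rounded values gave an estimate of depth, since the sum of the values is not a number of reads. By this estimate a library held 9700000 to 63800000 counted reads, and the deepest and the shallowest were both MOLM-13 libraries. Depth followed construct in that line, at 9700000 to 15300000 with pLKO against 24400000 and 63800000 with shRNF5, so that in MOLM-13 a difference of construct and one of depth cannot be told apart. In HL-60 and U937 the depths of the groups overlapped. RNF5 was lower in every shRNF5 library than in every pLKO library of its line, with 76 and 81 against 1017 to 1223 in MOLM-13, 37 to 133 against 506 to 689 in HL-60, and 46 and 74 against 648 and 843 in U937. All 8 genes of a myeloid identity list, among them PTPRC, SPI1 and MPO, were above 0 in all 3 lines. Of 13 markers of other cell types, 1 was above 0 in MOLM-13, 2 in HL-60 and 4 in U937, with NKG7 in all 3 lines, and CD3D, CD3E, MS4A1, GATA1, HBB and EPCAM were at 0 in all 15 libraries.

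The 3 lines differed in which of these genes passed the authors' filter on low counts, and a listed 0 does not show that a gene was silent. The count for U937 includes FPR1, whose pLKO values there were 1 and 0. MOLM-13 had 5 of the 9 genes above 0, U937 had 8 and HL-60 had 7, and 4 genes, FCGR1A, FCGR2A, FCER1G and C3AR1, were above 0 in all 3 lines. FPR1 and C5AR1 were above 0 in U937 only, CR1 and FPR2 were listed at 0 in MOLM-13, and FCGR1B was listed at 0 in U937. Levels in different lines are set side by side without a test, as the value over the sum of all values of the library, in parts per 1000000 (ppm), because each line was scaled by itself.

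Among the pLKO libraries, FCER1G was highest in U937, at 63.9 and 90.7 ppm, followed by HL-60, at 16 to 25.2, and MOLM-13, at 2.67 to 4.74, and no 2 lines overlapped. FCGR2A ran in another order. It lay at 29.1 to 43.4 ppm in MOLM-13 and at 26.7 and 31.4 in U937, 2 ranges that overlapped, and at 9.51 to 10.6 in HL-60, below both. FCGR1A overlapped between HL-60, at 13 to 16.6, and MOLM-13, at 11.7 to 16.8, and was lower in U937, at 2.06 and 4.49. The line with the most γ chain RNA was thus the one with the least FCGR1A.

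Divided by exonic length, which suits a whole-transcript kit and not a 3′-end kit, the mean pLKO level of FCER1G in U937 was 80.2 ppm per kilobase, against 1.52 for FCGR1A and 5.35 for FCGR2A. In HL-60 these levels were 21.6, 6.80 and 1.86. In MOLM-13 they were 3.65, 6.31 and 6.74, so that FCER1G, above both receptors in the other 2 lines, was below both in MOLM-13.

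Of the complement and formyl peptide receptors, C3AR1 was highest in HL-60 pLKO libraries, at 12.6 to 17.6 ppm. It was lower in U937, at 1.94 and 4.06, and in MOLM-13, at 0.431 to 2.05, 2 lines whose ranges overlapped. CR1 lay at 21.3 and 37.9 ppm in U937 and at 0.854 to 3.57 in HL-60, with no overlap. FPR2 overlapped between U937, at 0.728 and 6.99, and HL-60, at 1.52 to 2.75.

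**Figure D1:**
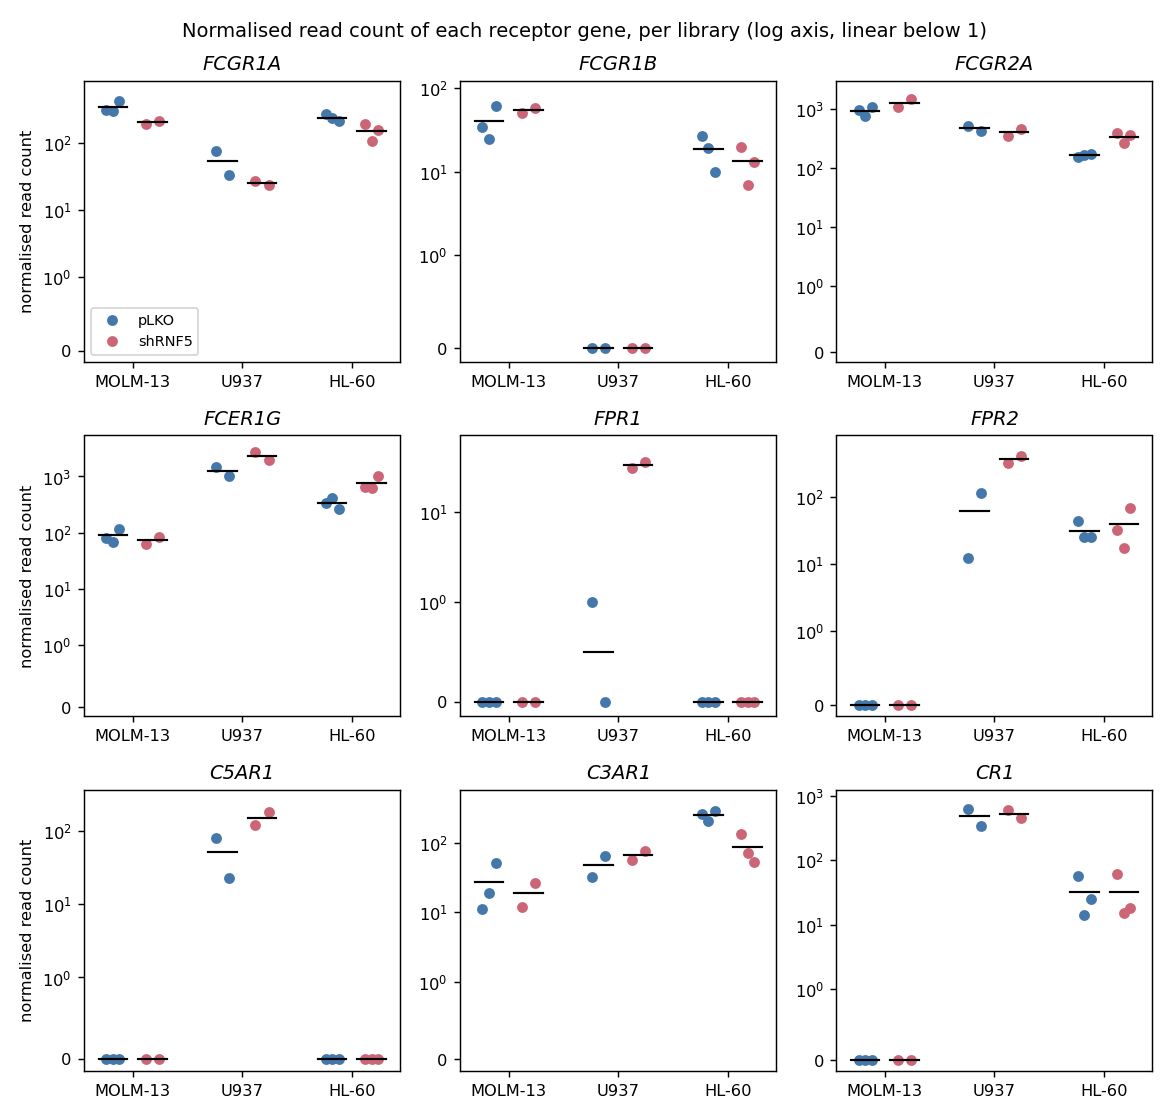
Normalized read count of each of the 9 genes in each of the 15 libraries, on a log axis that is linear below 1, with pLKO in blue and shRNF5 in red and a black bar at each group mean. FPR1, FPR2, C5AR1 and FCER1G of U937 and FCGR2A and FCER1G of HL-60 have all shRNF5 points above all pLKO points, and C3AR1 of HL-60 and FCGR1A of all 3 lines have all of them below. These are 5 of 8 members tested in U937, 4 of 7 in HL-60 and 1 of 5 in MOLM-13. Of all genes tested, 59.2%, 38.5% and 38.7% did not overlap in these lines.

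The comparison of shRNF5 with pLKO within a line asks which of these receptors changed with shRNF5. Because pLKO is an empty vector, lower RNF5 and other effects of the hairpin cannot be told apart. Each line was tested with limma on log2(value + 1), a scale that understates the change of low genes, and a gene was called at a Benjamini-Hochberg adjusted p under 0.1 with an absolute log2 fold change over 0.4. In U937, 4 of the 8 genes tested rose, FPR1, FPR2, C5AR1 and FCER1G, and none fell. FPR1 had pLKO values of 1 and 0 there and passed the authors' filter through its shRNF5 libraries. Its rise was therefore largely set by its entry to the test, and adds no support to this count or to the U937 median given below. In HL-60, 2 of 7 rose, FCGR2A and FCER1G, and 2 fell, C3AR1 and FCGR1A. In MOLM-13, 0 of 5 were called by limma, with 1, FCGR1A, at an unadjusted p under 0.05. Of all genes tested, 15.7% were called in U937, 6.92% higher and 8.74% lower. In HL-60 25.9% were called, 13.6% higher and 12.3% lower, and in MOLM-13 2.04%, 1.03% higher and 1.01% lower. The median log2 fold change of the receptor genes tested was 0.72 in U937, -0.08 in HL-60 and -0.24 in MOLM-13, where the median of all genes tested was 0.00, 0.00 and 0.01. In bulk RNA, more cells with a transcript and more transcript per cell cannot be told apart.

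**Figure D2:**
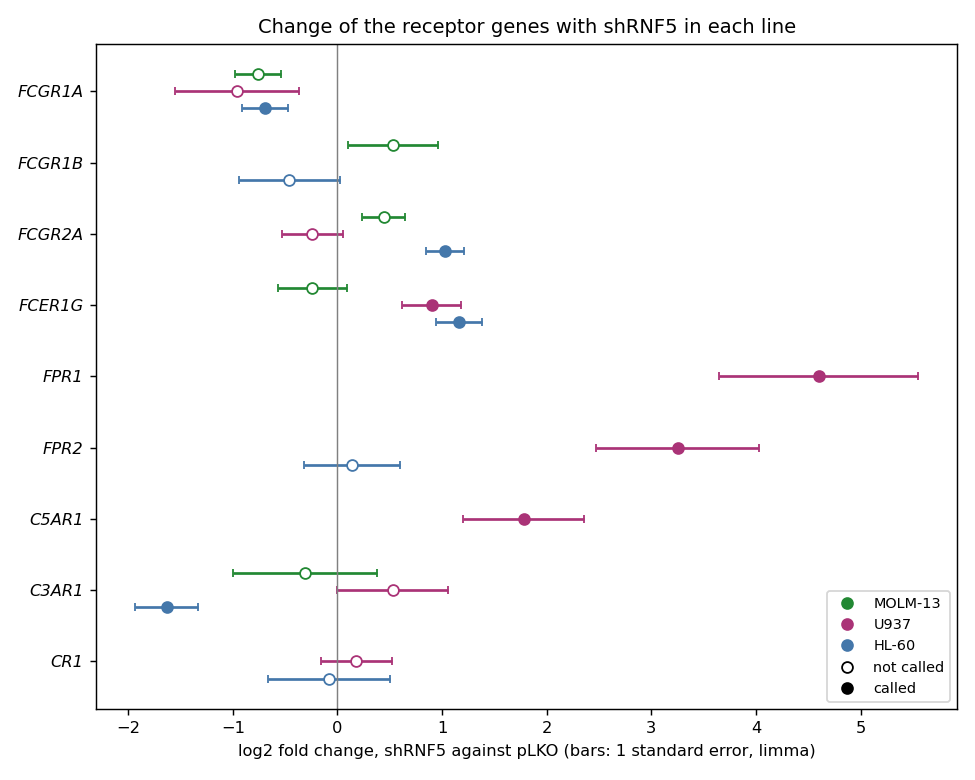
Log2 fold change of each receptor gene between shRNF5 and pLKO in MOLM-13 (green), U937 (purple) and HL-60 (blue), with 1 standard error from limma and filled points for called genes. The fitted changes reach 4.60 for FPR1 and 3.25 for FPR2 in U937, and the lowest is -1.63, for C3AR1 in HL-60.

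The γ chain gene FCER1G rose in both U937 and HL-60. In U937 its normalized read count was 1494 and 1023 with pLKO and 2689 and 1994 with shRNF5. In HL-60 it was 339, 413 and 260 with pLKO and 650, 619 and 1014 with shRNF5. Every shRNF5 library lay above every pLKO library in both lines, as for 29.0% of all genes tested in U937 and 19.9% in HL-60. The log2 fold change was 0.90 ± 0.28 (SE; limma adjusted p = 0.0737) in U937 and 1.16 ± 0.22 (adjusted p = 0.00654) in HL-60. In MOLM-13, where the gene was lowest, the values were 80, 69 and 118 with pLKO and 63 and 85 with shRNF5, and the groups overlapped (log2 fold change -0.24 ± 0.33, adjusted p = 0.738). FCER1G lies on GRCh37 at chr1:161185024-161190489 on the forward strand, and none of the 75-base stretches of its annotated transcripts occurred in transcripts of another gene.

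FCGR2A, whose product signals through its own ITAM, rose in HL-60, from 152, 166 and 172 with pLKO to 384, 268 and 362 with shRNF5. The lowest shRNF5 value was 1.56 times the highest pLKO value, and the log2 fold change was 1.03 ± 0.18 (limma adjusted p = 0.00479). In MOLM-13, where its level overlapped that of U937, the values were 946, 753 and 1081 against 1053 and 1474 (log2 fold change 0.44 ± 0.21, adjusted p = 0.335). In U937 they were 517 and 427 against 353 and 448 (-0.24 ± 0.29, adjusted p = 0.630). The groups overlapped in both of these lines. FCGR2A lies at chr1:161475220-161493803 on the forward strand, and 20.4% of the 75-base stretches of its transcripts also occurred in transcripts of other genes, 5.77% in those of its paralog FCGR2C, so that reads could be split between them.

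FCGR1A, the high-affinity IgG receptor, had lower values with shRNF5 in all 3 lines, and in the fits by line passed the test in HL-60. Its values in HL-60 were 265, 235 and 212 with pLKO and 190, 107 and 153 with shRNF5 (log2 fold change -0.69 ± 0.22, limma adjusted p = 0.0490). In MOLM-13 they were 313, 303 and 418 against 193 and 209 (-0.76 ± 0.22, adjusted p = 0.157), and in U937 74 and 33 against 27 and 23 (-0.96 ± 0.59, adjusted p = 0.320). No shRNF5 library reached a pLKO library of its line, yet the gap was narrow, with 190 against 212 in HL-60 and 27 against 33 in U937. Over all genes tested, 59.2% did not overlap between the groups in U937, 38.5% in HL-60 and 38.7% in MOLM-13. The HL-60 call did not hold without pLKO library 1, pLKO library 3, shRNF5 library 2 or shRNF5 library 3, with adjusted p from 0.101 to 0.139 and log2 fold changes from -0.77 to -0.47. In one limma fit over all 15 libraries the calls changed places, with adjusted p = 0.115 in HL-60 and 0.0504 in U937. FCGR1A lies at chr1:149754227-149763231 on the forward strand. Of the 75-base stretches of its transcripts 28.4% occurred in transcripts of other genes, 26.9% in those of FCGR1CP, and 50.2% occurred in the FCGR1B locus with 10000 bases on either side.

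FCGR1B, a copy of FCGR1A at chr1:120928331-120934573 on the reverse strand that the annotation used here lists as a pseudogene, had low values. They were 34, 25 and 61 against 51 and 58 in MOLM-13 (log2 fold change 0.53 ± 0.43, limma adjusted p = 0.561) and 27, 19 and 10 against 20, 7 and 13 in HL-60 (-0.46 ± 0.48, adjusted p = 0.523). The groups overlapped in both lines, and because of the shared sequence the split of reads between FCGR1A and FCGR1B is uncertain.

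The formyl peptide receptors stood apart in U937. FPR2, at chr19:52255279-52273784 on the forward strand, had values of 12 and 112 with pLKO and 321 and 410 with shRNF5, so that the lowest shRNF5 value was 2.87 times the highest pLKO value although the pLKO libraries differed widely from each other. Its log2 fold change was 3.25 ± 0.78 (limma adjusted p = 0.0392). In HL-60 the values were 44, 25 and 25 with pLKO and 32, 17 and 68 with shRNF5, and the groups overlapped (0.14 ± 0.46, adjusted p = 0.848).

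FPR1, at chr19:52248425-52307368 on the reverse strand, had values of 1 and 0 with pLKO in U937 and 31 and 36 with shRNF5. By the estimated depths this was 1 read against 63, a ratio of 68.8 with a 95% exact interval of 11.9 to 2760 that covers counting error only. The limma adjusted p was 0.0266, and the fitted log2 fold change of 4.60 ± 0.95 depends on the pseudocount. Because the gene passed the authors' filter through its shRNF5 libraries, this test is not independent support for its rise. Although the loci of FPR1 and FPR2 overlap on opposite strands, no exonic bases were shared, and none of the 75-base stretches of either gene's transcripts occurred in transcripts of another gene.

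C5AR1, the C5a receptor at chr19:47793280-47825323 on the forward strand, had values of 80 and 23 with pLKO and 123 and 183 with shRNF5 in U937, for a log2 fold change of 1.78 ± 0.58 (limma adjusted p = 0.0861). The lowest shRNF5 value was 1.54 times the highest pLKO value.

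C3AR1, the C3a receptor at chr12:8209440-8218955 on the reverse strand, went the other way in HL-60, where it was most abundant. Its values fell from 258, 207 and 286 with pLKO to 132, 71 and 53 with shRNF5, and the highest shRNF5 value was 0.64 times the lowest pLKO value (log2 fold change -1.63 ± 0.30, limma adjusted p = 0.00600). In U937 the values were 32 and 65 against 57 and 77 (0.53 ± 0.53, adjusted p = 0.545). In MOLM-13 they were 11, 19 and 51 against 12 and 26 (-0.31 ± 0.69, adjusted p = 0.848), and the groups overlapped in both lines.

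CR1, at chr1:207669492-207815110 on the forward strand, did not pass the test in either line where it was above 0. In U937 its values were 625 and 341 with pLKO and 607 and 450 with shRNF5 (log2 fold change 0.18 ± 0.34, limma adjusted p = 0.768). In HL-60 they were 57, 14 and 25 against 62, 15 and 18 (-0.08 ± 0.58, adjusted p = 0.935). Library 1 of each HL-60 group was the highest of its group.

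The calls in U937 rested on few libraries. Without pLKO library 2, limma adjusted p was 0.256 for FPR1, FPR2, C5AR1 and FCER1G alike. Without shRNF5 library 1 it was 0.585, 0.576, 0.600 and 0.668, and without shRNF5 library 3 it was 0.235, 0.246, 0.397 and 0.239. Without pLKO library 3, FPR1 and FPR2 stayed called while C5AR1 (adjusted p = 0.211) and FCER1G (0.187) did not. The count of called genes among all genes moved likewise, from 2062 to 0 without pLKO library 2, to 0 without shRNF5 library 1 and to 6 without shRNF5 library 3. In these fits the remaining library of an arm is assumed to vary like the other arm. The fitted log2 changes of these 4 genes were positive in every such fit, but their size moved. That of FPR2 was 1.69 without pLKO library 2 and 4.81 without pLKO library 3, and that of C5AR1 was 2.65 and 0.90 in the same fits. FPR1 ranged from 4.10 to 5.10 and FCER1G from 0.63 to 1.18. In HL-60, FCGR2A, FCER1G and C3AR1 stayed called without any 1 of the 6 libraries. In MOLM-13, FCGR1A was called without pLKO library 1 (log2 fold change -0.82, adjusted p = 0.0960), which was the only member called in a fit without 1 library there.

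**Figure D3:**
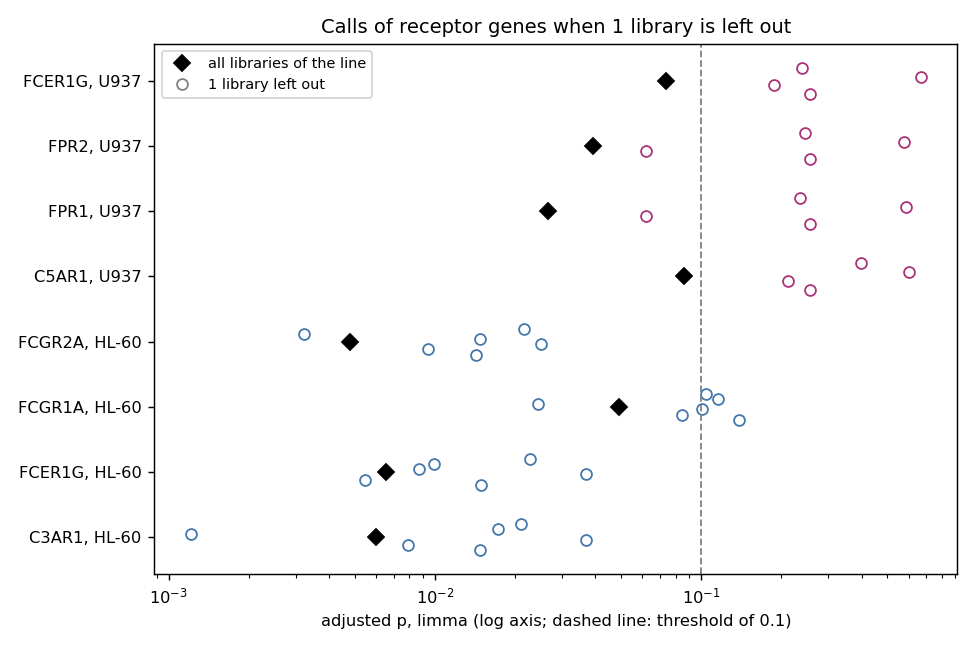
Adjusted p from limma for the 8 calls of receptor genes, with all libraries of the line (black diamonds) and with 1 library left out (open circles, purple for U937 and blue for HL-60), on a log axis with the threshold of 0.1 dashed. All circles of FCGR2A, FCER1G and C3AR1 in HL-60 lie under the threshold, at 0.0369 or less, and most of those in U937 lie above it.

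Whether a response differed between lines was tested as an interaction in one limma fit over the 15 libraries, which could include the 4 genes that no line listed at 0. Between U937 and HL-60, 2 of the 4 differed, where 37.2% of 11072 genes did. FCGR2A differed by -1.27 ± 0.31 on the log2 scale (adjusted p = 0.00819), from -0.24 in U937 and 1.03 in HL-60. C3AR1 differed by 2.16 ± 0.77 (adjusted p = 0.0460), from 0.53 and -1.63. Between MOLM-13 and HL-60, 1 of 4 differed, where 8.82% of all genes did. This was FCER1G, by -1.40 ± 0.39 (adjusted p = 0.0565), from -0.24 and 1.16. Between MOLM-13 and U937, 0 of 4 passed the limma test, where 15.4% of all genes did, with 1, FCER1G, at an unadjusted p under 0.05 (difference -1.15 ± 0.43, adjusted p = 0.104).

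For FCGR1A the differences between lines were small beside their errors, at -0.27 ± 0.45 for U937 against HL-60, 0.20 ± 0.47 for MOLM-13 against U937 and -0.07 ± 0.42 for MOLM-13 against HL-60 (limma adjusted p from 0.679 to 0.943). The FCER1G difference between MOLM-13 and HL-60 was lost without either MOLM-13 shRNF5 library (adjusted p = 0.276 without library 1 and 0.120 without library 2). It was also lost without HL-60 pLKO library 1 (0.116), pLKO library 3 (0.137) or shRNF5 library 3 (0.161). The C3AR1 difference was lost without U937 pLKO library 2 (0.175), U937 shRNF5 library 3 (0.123) or HL-60 shRNF5 library 3 (0.105). Without MOLM-13 pLKO library 3, C3AR1 differed between MOLM-13 and HL-60 too (1.91, adjusted p = 0.0854). FCER1G differed between MOLM-13 and U937 without MOLM-13 pLKO library 1 (-1.20, adjusted p = 0.0964) or U937 shRNF5 library 3 (-1.36, 0.0866).

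Genes listed at 0 in the third line were compared in fits over the libraries of 2 lines, added after the data had been seen. The response of FPR2 differed between U937 and HL-60 by 3.10 ± 1.04 (limma adjusted p = 0.0448), in a fit that called 34.4% of all genes. It rests on U937 pLKO values of 12 and 112, and was not refitted with 1 library left out. CR1 differed by 0.26 ± 0.85 (adjusted p = 0.847). FCGR1B differed between MOLM-13 and HL-60 by 0.99 ± 0.68 (adjusted p = 0.369), in a fit that called 15.1% of all genes.

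Other genes of these pathways were taken from lists, with counts over the list genes reported here, and among those the named ones are the genes called in all 3 lines in one direction and, in each line, up to 3 called genes with the largest change. Of other Fc receptors and ITAM adaptors, 1 of 10 tested rose and 1 fell in U937, 3 of 7 rose in HL-60 and 0 of 10 were called in MOLM-13. Of all genes tested, 15.7% were called in U937, 25.9% in HL-60 and 2.04% in MOLM-13. FCAR, the IgA receptor that also signals through the γ chain, rose from 200 and 130 to 1083 and 462 in U937 (2.13 ± 0.42, limma adjusted p = 0.0235). FCGR2C, which shares sequence with FCGR2A, fell from 231 and 180 to 37 and 62 (-2.07 ± 0.44, adjusted p = 0.0279). In HL-60 the ITAM adaptor gene TYROBP (1.38 ± 0.23) and the adaptor gene HCST (0.93 ± 0.20) rose with FCER1G, and FCGRT, the neonatal IgG receptor, rose from 21, 16 and 15 to 98, 87 and 346 (2.99 ± 0.46, adjusted p = 0.00291).

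Of 26 genes of signaling downstream of ITAM receptors, 5 rose and 0 fell in U937, 4 rose and 1 fell in HL-60 and 0 were called in MOLM-13. In U937 the genes that rose included the small GTPase gene RAC2 (0.99 ± 0.24), the Src family kinase gene FGR (0.94 ± 0.26) and SYK (0.89 ± 0.24), the kinase that docks on phosphorylated ITAMs. In HL-60 FGR (1.04 ± 0.25) and the adaptor gene PIK3AP1 (0.75 ± 0.12) rose, and the ubiquitin ligase gene CBL fell (-0.87 ± 0.22). These shares, 19.2% in U937 and 19.2% in HL-60, stand beside the 15.7% and 25.9% called among all genes.

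Of other chemoattractant receptors, 0 of 7 were called in U937, 0 of 6 in MOLM-13, and 1 of 6 rose and 3 fell in HL-60. PTAFR, the receptor of platelet-activating factor, rose in HL-60 (1.85 ± 0.42, limma adjusted p = 0.0141), whereas the leukotriene B4 receptor genes LTB4R2 (-1.40 ± 0.31) and LTB4R (-0.86 ± 0.15) fell. Of the G protein signaling list, 3 of 23 rose in U937, the subunit genes GNB4 (1.08 ± 0.34), GNG2 (0.99 ± 0.28) and GNAI3 (0.85 ± 0.26), and 0 of 23 were called in MOLM-13. In HL-60 4 of 22 rose and 3 fell, with the largest changes in the kinase gene PIK3CG (-1.31 ± 0.26), the arrestin gene ARRB2 (-1.03 ± 0.22) and RGS2 (0.67 ± 0.26). Both lists stand beside 15.7% of all genes called in U937, 25.9% in HL-60 and 2.04% in MOLM-13.

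ANXA1, which encodes the FPR ligand annexin A1, was the only gene of the 7 pathway lists called in all 3 lines. It rose from 885, 728 and 633 to 1488 and 1792 in MOLM-13 (log2 fold change 1.14 ± 0.19, limma adjusted p = 0.0639) and from 502 and 820 to 2608 and 3200 in U937 (2.17 ± 0.29, adjusted p = 0.00917). In HL-60 it rose from 1285, 1043 and 982 to 1402, 1483 and 1506 (0.42 ± 0.13, adjusted p = 0.0469). All shRNF5 libraries lay above all pLKO libraries of their line. Over the list of ligands, 1 of 5 was called in MOLM-13, 3 of 5 in U937 and 5 of 5 in HL-60. The shares over all genes tested were 2.04%, 15.7% and 25.9%. C3, the source of C3a, rose in U937 (2.09 ± 0.48) and in HL-60 (1.51 ± 0.30), the line in which the C3a receptor gene fell. CTSG, the granule protease cathepsin G, fell in U937 (-1.18 ± 0.33) and rose in HL-60 (1.99 ± 0.29), where HEBP1 also rose (0.69 ± 0.24).

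Of other complement receptors, regulators and components, 0 of 12 were called in MOLM-13, 2 of 16 rose and 3 fell in U937, and 7 of 14 rose and 0 fell in HL-60. Over all genes tested, 6.92% rose and 8.74% fell in U937, and 13.6% rose and 12.3% fell in HL-60. In U937 the C1 protease gene C1S went from 91 and 35 to 1 and 2 (limma adjusted p = 0.0205), too few reads for a fold, and C1R fell (-2.33 ± 0.71). In HL-60 the factor D gene CFD (2.99 ± 0.40) and the properdin gene CFP (1.89 ± 0.28) rose. CLU, clusterin, went from 5, 2 and 7 to 74, 61 and 31 there (limma adjusted p = 0.00212). CLU with pLKO and C1S with shRNF5 were near 0, and may have passed the authors' filter through the other group. Their tests therefore add no support to the counts of this list. Of the transcription factors, STAT2 fell in U937 (-1.32 ± 0.29) and rose in HL-60 (0.77 ± 0.12), and CEBPB rose in HL-60 (0.56 ± 0.16). These were 1 of 12 lower in U937 and 2 of 9 higher in HL-60, with 0 of 11 called in MOLM-13.

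The pathway and marker calls depended on single libraries as the receptor calls did. Of 31 list genes named for HL-60, 21 stayed called without any 1 library, and the other 10, which were ANXA1, CD33, CEBPB, CXCR2, HEBP1, LYZ, MPO, NKG7, RGS2 and S100A9, lost the call without 1 or more of them. Of 21 named for U937, 0 stayed called without pLKO library 2 or without shRNF5 library 1, 1 without shRNF5 library 3 and 16 without pLKO library 3. The 2 named for MOLM-13, ANXA1 and S100A9, stayed called without pLKO library 1 and in no other fit without 1 library.

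**Figure D4:**
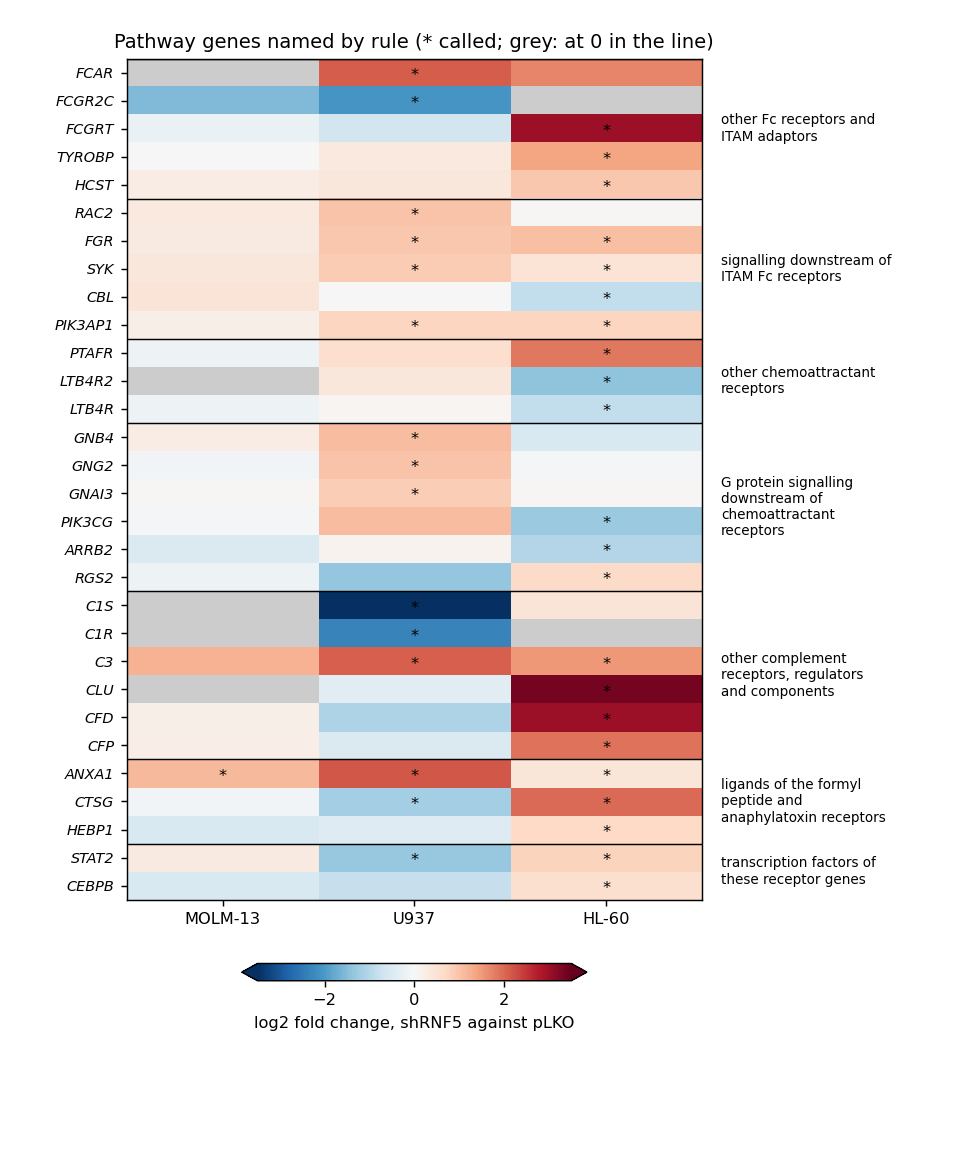
Log2 fold changes between shRNF5 and pLKO of the named pathway genes, in 3 columns for the lines, on a scale from blue (lower) to red (higher) that saturates at its ends, with asterisks for called genes and grey for genes at 0 in a line. Only ANXA1 has an asterisk in all 3 columns.

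Some markers of maturation were also called in U937 and HL-60. Over all genes tested, 6.92% were called higher and 8.74% lower in U937, and 13.6% higher and 12.3% lower in HL-60. In MOLM-13 1.03% were called higher and 1.01% lower. Of the monocyte and macrophage markers, 4 of 8 tested rose in U937 and 4 of 5 in HL-60, S100A8 most in HL-60 (3.35 ± 0.47) and S100A9 most in U937 (3.40 ± 0.44), whereas in MOLM-13 1 of 7, S100A9, fell (-1.0 ± 0.21). The summed level of the list in U937 was 891 and 1230 ppm with pLKO and 863 ppm in the lower shRNF5 library, with the other between the pLKO values, and it ranged from 231 to 299 and from 321 to 468 in HL-60. CD68, MRC1 and MSR1 were at 0 in all 3 lines, and CD14 in U937 and HL-60. Of the neutrophil maturation markers, 1 of 6 rose and 1 fell in U937 and 1 of 5 rose and 1 fell in HL-60, with LTF, LCN2, CAMP and CEACAM8 at 0 throughout. Of the progenitor markers, 4 of 9 fell in U937, whereas 6 of 9 rose and 1 fell in HL-60. Their summed level ranged from 3730 to 4170 ppm with pLKO and from 1580 to 1790 with shRNF5 in U937, and from 8010 to 9760 and from 11300 to 16300 in HL-60. The part of any of these in the receptor changes was not tested.

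Among themselves, the 4 genes above 0 in all lines did not follow one another closely once each line was centered on its own mean. Over the 15 libraries Pearson's r was 0.58 between FCGR2A and FCER1G, 0.30 between FCGR1A and C3AR1, and from -0.48 to -0.27 for the other pairs. These values describe libraries that share the contrast of shRNF5 and pLKO. Of 11068 other genes, those most like FCER1G were WBP1L (r = 0.937), VASP and FAM43A (both 0.925). Those most like FCGR2A were RAB37 (0.974), RNF170 (0.946) and AKAP10 (0.937), and those most like C3AR1 were RAP1GDS1 (0.879), ZNF546 (0.874) and GLUD1 (0.864).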

How the data were processed

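The 15 RNA-seq libraries were grouped by line and construct from the sample labels. According to the labels and methods, the authors trimmed the reads, used STAR with hg19 and featureCounts for gene counts, and then normalized each line by itself in SARTools, which runs edgeR. What they deposited is treated as a score: read counts divided by library factors and then rounded, no longer raw counts. The planned test of raw counts, edgeR, was therefore not run here.

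Instead, log2(value + 1) was fitted with limma 3.58.1 (R 4.3.3) and a mean-variance trend, line by line, for genes that were not at 0 throughout the line (12570 in HL-60, 13026 in MOLM-13 and 13165 in U937), and no filter was added to that of the authors. A call needed a log2 fold change beyond 0.4 in size and an adjusted p under 0.1. On simulated data with 2-fold and 4-fold changes, 72% of the 2-fold ones were recovered for MOLM-13, 42.1% for U937 and 89.4% for HL-60, and 12.1%, 8.63% and 6.44% of all calls were false. Each simulated gene had the typical spread for its mean, and the changed genes were few and left out those with the lowest means. These rates were not measured for low genes such as FPR1 in U937. Simulated depths were recovered within 2% in 30 of 30 libraries. No libraries held identical values.

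Gene positions and 75-base stretches came from GENCODE annotation on GRCh37, and promoter windows from RefSeq on GRCh38.p14. Some list genes are not reported here and are left out of the list counts. The 9 members and the lists were chosen with earlier results of these data known. Named genes are the members, RNF5, per list the genes called in all 3 lines in one direction and up to 3 called genes per line with the largest change, and the 3 genes most like each of the 3 members called in the most lines, with ties settled by the smallest adjusted p in any line. Marker genes given as at 0 or above 0 and genes sharing sequence with a member were named after their values were seen. Alternatives were other pseudocounts, filters, scalings, variance settings and thresholds, replicate blocks, and leaving out each library.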

Additional observations from a re-analysis of the deposited data

Results flagged for a closer look

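These results were picked out because a test of the difference between lines passed its threshold. The response of FCER1G to shRNF5 differed between MOLM-13 and HL-60 by -1.40 on the log2 scale. The response of FCGR2A differed between U937 and HL-60 by -1.27. The response of C3AR1 differed between the same lines by 2.16. For each of these genes the fitted changes had opposite signs, but the smaller was not called, so its sign is not established. It was -0.24 for FCER1G in MOLM-13, -0.24 for FCGR2A in U937 and 0.53 for C3AR1 in U937. Against HL-60, the U937 response differed for 37.2% of all genes tested and the MOLM-13 response for 8.82%. The FCER1G and C3AR1 differences did not pass in every fit with 1 library left out. In the fit over the libraries of U937 and HL-60, which was added after the data had been seen, the response of FPR2 differed by 3.10. That fit was not repeated with 1 library left out. No group had the 4 libraries needed to test for a library far from the others.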

How the results depend on the processing

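The call threshold, the pseudocount, the filter, the scaling, the variance setting and the libraries included were varied one at a time, and the fit without any filter could not be fitted. Pseudocounts of 0.5 and 10, median-of-ratios rescaling and a mean of at least 50 left the calls of the receptor genes in MOLM-13 and HL-60 as they were. A mean of at least 50 dropped FPR1 from U937. In U937 the 4 called members became 1, FPR1, without the mean-variance trend, and 2, FPR1 and FPR2, at an adjusted p under 0.05. A single fit over the 15 libraries called 5, with FCGR1A added. FPR1 adds no support to any of these counts, because it passed the authors' filter through its shRNF5 libraries. The U937 fits with 1 library left out are described above. In MOLM-13 the count of 0 became 2, FCGR1A and FCGR2A, with library weights, and from 0 to 1 with 1 library left out. In HL-60 it ranged from 3 to 4 in all these fits, with FCGR1A lost in the one over the 15 libraries. Members with a different response in MOLM-13 and U937 became 1, FCER1G, with a pseudocount of 10 or a mean of at least 50, and from 0 to 1 with 1 library left out. Between MOLM-13 and HL-60 they ranged from 0 to 2 with 1 library left out. Between U937 and HL-60 they became 1, FCGR2A, with a mean of at least 50. That filter dropped C3AR1, whose MOLM-13 means were 27.0 with pLKO and 19.0 with shRNF5, so its difference was not tested there. The fits with 1 library left out that lost the C3AR1 difference are given above. The cause of these changes was not tested, except that a mean of at least 50 leaves fewer genes.

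RNF5 in U937 kept its direction, with log2 fold changes from -3.98 to -3.30 where 1 library was left out, and missed the threshold without pLKO library 2 or shRNF5 library 1 (limma adjusted p = 0.256 and 0.292). Signs changed only among values that had not been called. FCER1G in MOLM-13 became 0.19 without the shallowest and the deepest library, and C3AR1 in MOLM-13 became 0.80 in that fit and ranged from -0.84 to 0.27 with 1 library left out. CR1 ranged from -0.26 to 0.61 in U937 and from -0.70 to 0.44 in HL-60, where library weights gave 0.02, and FPR2 in HL-60 from -0.36 to 0.61. Differences in response of FCGR1A ranged from -0.37 to 0.77 between MOLM-13 and U937, from -0.29 to 0.12 between MOLM-13 and HL-60 and from -0.84 to 0.30 between U937 and HL-60. That of FCER1G between U937 and HL-60 reached 0.02.

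Over all genes, the 266 calls in MOLM-13 became 55 without the trend, 39 at an adjusted p under 0.05, 2224 with library weights, 598 in one fit over the 15 libraries and 1 to 872 with 1 library left out. The 2062 calls in U937 became 475, 824, 2135 and 5239 in the first 4 of these settings and 0 to 2369 with 1 library left out. The 3251 in HL-60 ranged from 1970 to 3580.

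The replicate numbers of the labels were not taken as pairs, since no label ties them to a shared culture or day. Deviations from the group mean correlated at 0.505, 0.156 and -0.109 for libraries of the same number in HL-60 and at -0.173 and -0.530 in MOLM-13. A fit with replicate block called 4 members in HL-60 and 0 in MOLM-13, where C3AR1 became 0.27, and calls over all genes became 3580 and 738. The deposited files number the MOLM-13 shRNF5 libraries 2 and 3, and a replicate block with those numbers, added after the data had been seen, called 2 members, FCGR1A and FCGR2A (limma adjusted p = 0.00295 and 0.00852), and 2495 genes in all. By those numbers the deviations correlated at 0.530 and 0.281. With 2 shRNF5 libraries, whose deviations mirror each other, and 2 shared numbers, these correlations do not settle which numbering pairs libraries. U937 groups share only number 3, so no paired fit was made there. The estimated depth limits FPR1, FPR2 and CR1 in libraries with few reads.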
